A study of Saccharomyces cerevisiae with 5 samples.

Results

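The early 5′ ETS is the stretch of ribosomal DNA that RNA polymerase I (Pol I) crosses right after it starts a 35S precursor transcript. It was defined by position alone, as nt 1 to 350 of the 5′ external transcribed spacer (5′ ETS, called ETS 1 in the files), counted from the 35S start. That gives 350 nucleotides of the 700 in the 5′ ETS, of the 6858 in the 35S gene and of the 9137 in the single ribosomal DNA repeat that the files hold. In the files' coordinates it is chrXII:467220-467569, and the gene is on the minus strand, so that nt 1 is at 467569. The bounds of the whole 5′ ETS (chrXII:466870-467569) equal those of ETS1-2 in the RefSeq table of assembly R64. The first 5 nucleotides are annotated in the files as part of the 35S core promoter, and no other feature is annotated in the early 5′ ETS.

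The study compared 2 libraries of budding yeast labelled rpa190-f1205h (here rpa190-F1205H) with 3 libraries labelled WT, by native elongating transcript sequencing (NET-seq) of Pol I. NET-seq counts RNA 3′ ends, each of which marks the last nucleotide added by a polymerase at harvest. In both genotypes the second-largest Pol I subunit, Rpa135, carried a C-terminal HA and histidine tag through which the polymerase was pulled down, and cells grew in rich medium (YEPD) and were collected by filtration. The RNA polymerase subunit Rpa190 is the largest and catalytic one, and the substitution lies in its trigger loop, a mobile element that closes over the active site when a matching nucleotide has bound. The 5′ ETS is transcribed first and is discarded during ribosome assembly. As it emerges it folds and recruits the UTP-A and UTP-B complexes and the U3 snoRNA particle, the first steps of small subunit assembly. No mature rRNA ends in this stretch.

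In the early 5′ ETS 3 windows of 50 nt held a larger share of the 5′ ETS signal in rpa190-F1205H than in WT, and their RNA sequences, read from the files, are shown to place the positions that rose. Capitals mark each nucleotide whose share was called higher in rpa190-F1205H by the test described further on, and the windows were chosen for display after their values were seen.
nt 1 to 50 (chrXII:467520-467569, minus strand): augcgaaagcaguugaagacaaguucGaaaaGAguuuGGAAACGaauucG
nt 101 to 150 (chrXII:467420-467469, minus strand): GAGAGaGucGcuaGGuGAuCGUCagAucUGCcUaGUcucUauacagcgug
nt 251 to 300 (chrXII:467270-467319, minus strand): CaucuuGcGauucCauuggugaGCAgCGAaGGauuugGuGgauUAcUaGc
Positions called lower in the same windows, 6 in nt 1 to 50, 7 in nt 101 to 150 and 5 in nt 251 to 300, are in lower case here. Some capitals were tested only because rpa190-F1205H was high there, so nothing is read from their number.

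The 5′ ETS held 192435 and 26739 sense 3′ ends in the rpa190-F1205H libraries, against 15431, 12960 and 13657 in the WT libraries. Of these, 113826 and 15272 lay in the early 5′ ETS in rpa190-F1205H, against 8299, 7076 and 7151 in WT. The median count per nucleotide there was 120 and 18 in rpa190-F1205H, and 6, 5.5 and 6 in WT, so single positions are measured least precisely in WT. Within the early 5′ ETS the 2 rpa190-F1205H libraries differed beyond counting error (chi-square over its degrees of freedom 6.63), as did the WT pairs (1.24 to 2.38), so each was counted as its own sample. The sample names written inside the mutant files are WT 1 and WT 2, and the sample titles give the substituted residue another number than the genotype label does. The genotype is taken from that label alone, since RPA190 lies outside the measured repeat. The labels do not say that libraries came from separate cultures, and p-values then measure the spread between these libraries, which may be technical. Exact permutation tests over the 10 possible splits were two-sided and could not give a p under 0.2. Every value below is a share of the sense counts of nt 1 to 700 unless it says otherwise, which removes differences in the total amount of 5′ ETS signal. A larger share can come from more polymerases at a position or from polymerases held there longer, and these counts cannot tell the 2 apart.

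The early 5′ ETS held a larger share of the 5′ ETS signal in rpa190-F1205H than in WT. The early 5′ ETS held 59.2% and 57.1% of the 5′ ETS signal in the rpa190-F1205H libraries, against 53.8%, 54.6% and 52.4% in the WT libraries. Both mutant values lay above all WT values, and the exact 95% binomial intervals (58.9 to 59.4% and 56.5 to 57.7% in rpa190-F1205H; 53.0 to 54.6%, 53.7 to 55.5% and 51.5 to 53.2% in WT), which cover counting error only, did not overlap between genotypes. The means were 58.1% ± 1.44 in rpa190-F1205H (SD, n = 2) and 53.6% ± 1.13 in WT (SD, n = 3), a difference of 4.55 percentage points (exact permutation p = 0.2). The nucleotide by which 50% of the 5′ ETS signal had accumulated was nt 297 and nt 301 in rpa190-F1205H, and nt 336, nt 325 and nt 340 in WT. Within the early 5′ ETS the count-weighted mean position was nt 174 ± 1.15 in rpa190-F1205H and nt 185 ± 4.16 in WT, so that the shift of 10.3 nt towards the promoter was also seen inside the region (exact permutation p = 0.2). With the bound at nt 300 the difference was 7.32 points, and with the bound at nt 400 it was 5.93 points. Both bounds lie before nt 401 to 450, which held 6.35% and 5.97% in rpa190-F1205H, against 10.9%, 11.4% and 11.4% in WT. Shares accumulated to nt 450 overlapped between genotypes, so the difference depends on where the bound lies. It was 3.57 points without nt 101 to 150 and 3.18 points without nt 1 to 50, alternatives chosen after seeing the data.

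**Figure D1:**
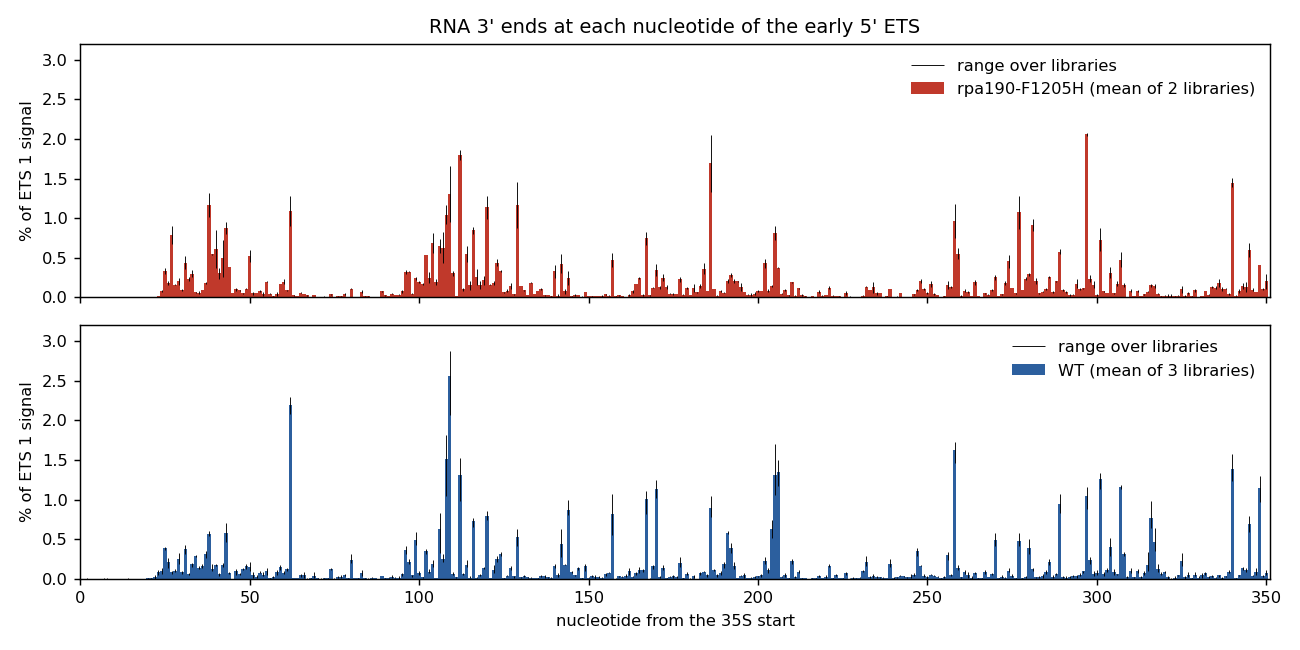
Share of the 5′ ETS signal (percent, vertical axis) at each nucleotide from nt 1 to 350 (horizontal axis), as the mean of 2 rpa190-F1205H libraries above and 3 WT libraries below, with black lines for the range over libraries. The highest mean shares are at nt 297 and nt 112 in rpa190-F1205H and at nt 109 and nt 62 in WT, and signal before nt 21 is near 0 in both.

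The change was not a smooth slope, but alternated between blocks of the region. In 50-nt windows fitted with edgeR's quasi-likelihood test over the whole 35S gene, with the 5′ ETS total as library size and Benjamini-Hochberg adjustment over 137 windows, 3 of the 7 windows rose, 3 fell and 1 was not called. On this scale 7.3% of the gene's windows were called higher and 87.6% lower, because the 5′ ETS as a whole gained signal relative to the rest of the gene in rpa190-F1205H, and the median tested position of the gene lay at a log2 fold change of -1.44. In the late 5′ ETS (nt 351 to 700), which shares the scale, 57.1% of the 7 windows were called higher and 42.9% lower. The window counts of the early 5′ ETS are near those of the late one, and read as a pattern along the region, not as a difference from its neighbour.

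Of the 7 early windows, the one at the start of the gene had the highest log2 fold change. In the late 5′ ETS, nt 451 to 500 had a higher one (0.79, adjusted p = 3.03e-13 with edgeR). Nt 1 to 50 held 8.23% and 8.89% of the 5′ ETS signal in the rpa190-F1205H libraries, against 5.45%, 5.29% and 4.89% in the WT libraries. The groups did not overlap, and the log2 fold change was 0.71 ± 0.106 (SE, adjusted p = 8.36e-11 with edgeR). Almost none of the recorded signal lay at the very 5′ end. The sources used here do not say how short an RNA could be kept and mapped. The counts near the start therefore cannot show whether polymerases were there. Nt 1 to 20 held 13 and 0 counts in rpa190-F1205H and 1, 2 and 3 counts in WT, whereas nt 21 to 50 held 15822 and 2377 counts in rpa190-F1205H and 840, 684 and 665 in WT. The first nucleotide with at least 10 counts was nt 23 or nt 24 in rpa190-F1205H and nt 23 or nt 25 in WT. The sense strand of the 150 nt before the start held 8 and 0 counts in rpa190-F1205H and 1, 0 and 1 in WT.

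Nt 51 to 100 held 4.32% and 3.82% of the signal in rpa190-F1205H, against 4.83%, 5.29% and 5.03% in WT (log2 fold change -0.31 ± 0.100, adjusted p = 0.00281 with edgeR), and this call was lost with the late 5′ ETS total as library size (-0.15, adjusted p = 0.108). Nt 101 to 150 held the most signal of all 7 windows in every library, 16.4% and 14.8% in rpa190-F1205H against 13.6%, 13.6% and 11.02% in WT. The groups did not overlap and the window was called higher (0.30 ± 0.137, adjusted p = 0.0338 with edgeR). The call was lost without WT library 1 (adjusted p = 0.0553 with edgeR), without WT library 2 (0.0834) and without WT library 3 (0.238). Without rpa190-F1205H library 1, which leaves 1 mutant library, the log2 fold change was 0.22. Nt 151 to 200 held 7.89% and 7.20% in rpa190-F1205H and 6.86%, 7.31% and 7.42% in WT, and these overlapped (0.07 ± 0.109, adjusted p = 0.520 with edgeR), but the window was called higher with the late 5′ ETS total as library size (0.22, adjusted p = 0.0237).

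The remaining windows again moved in opposite directions. Nt 201 to 250 held 3.85% and 4.24% in rpa190-F1205H, against 5.57%, 5.98% and 6.15% in WT (-0.55 ± 0.102, adjusted p = 1.65e-07 with edgeR). Nt 251 to 300 held 11.5% and 10.6% in rpa190-F1205H, against 8.04%, 7.11% and 7.29% in WT (0.56 ± 0.115, adjusted p = 1.67e-06 with edgeR). Nt 301 to 350 held 6.98% and 7.50% in rpa190-F1205H, against 9.40%, 10.1% and 10.6% in WT (-0.47 ± 0.116, adjusted p = 7.60e-05 with edgeR). In each of these 3 windows the groups did not overlap, and the calls held with any 1 WT library left out (largest adjusted p 0.00293 with edgeR). With either rpa190-F1205H library left out, which leaves 1 mutant library, the log2 fold changes kept their direction. The directions are those of shares of the 5′ ETS. Scaled to the 35S total instead, all 7 windows were higher in rpa190-F1205H, because the early 5′ ETS held 6.12% and 5.07% of the 35S signal in the mutant libraries, against 1.60%, 1.59% and 1.54% in the WT libraries.

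**Figure D2:**
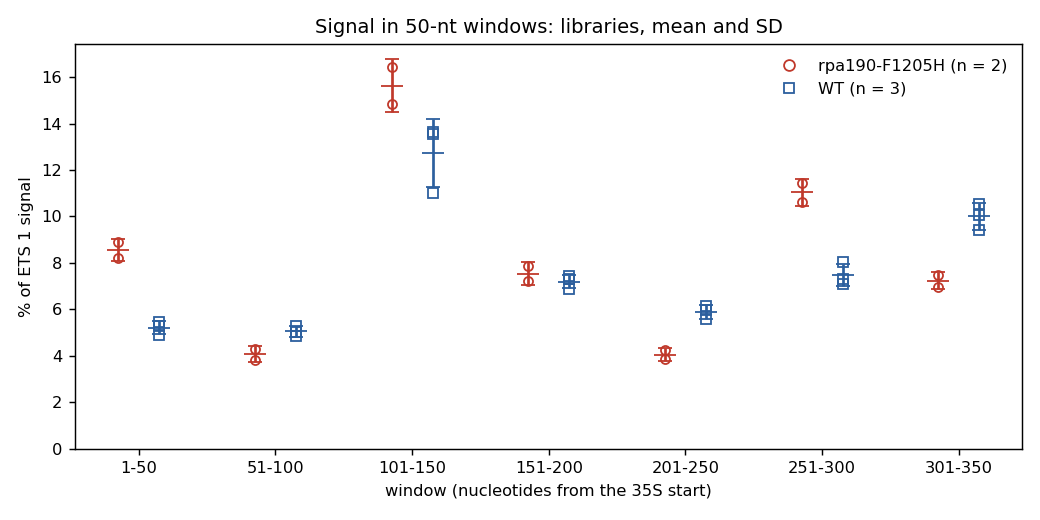
Share of the 5′ ETS signal (percent) in the 7 windows of 50 nt, with 1 point per library and the mean and SD, rpa190-F1205H left of WT in each window. The mutant points lie above all WT points in nt 1 to 50, 101 to 150 and 251 to 300, below them in nt 51 to 100, 201 to 250 and 301 to 350, and among them in nt 151 to 200.

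At the level of single nucleotides, counts were low enough that 199 of the 350 positions passed the filter on low counts and 151 were not tested. The untested ones comprised all of nt 1 to 20 and 131 others, and held 5.38% and 6.07% of the early signal in rpa190-F1205H and 4.30%, 4.14% and 5.29% in WT. Of the 199 tested positions, 85 (42.7%) were called higher and 49 (24.6%) lower in rpa190-F1205H (edgeR's quasi-likelihood test, adjusted over 5452 tested positions of the 35S gene). Over the gene 11.6% of tested positions were called higher and 68.4% lower on this scale, and in the late 5′ ETS 30.3% and 23.0%. Scaled to the 35S total, 220 early positions were higher and 0 lower with edgeR (1 lower at an unadjusted p below 0.05), and with TMM factors 195 were higher and 5 lower. A position could pass the filter through its high genotype alone, and 56 did so through rpa190-F1205H and 30 through WT. Counts by base are therefore given for the 108 positions that reached the required share (0.0648% of the 5′ ETS) in both rpa190-F1205H libraries and in at least 2 WT libraries. Of these 108, 36 rose and 28 fell, with a median log2 fold change of 0.06, against 20.4% higher and 23.9% lower of the late 5′ ETS positions chosen in the same way and 8.92% and 66.4% of those in the gene. Without a filter, 38.3% of the 350 positions had both rpa190-F1205H shares above all WT shares and 18.9% had both below, against 28.6% and 19.7% in the late 5′ ETS. Across all 350 positions, Spearman's rho of the counts was 0.958 between the rpa190-F1205H libraries, 0.898 to 0.915 among WT libraries and 0.720 to 0.792 between genotypes. These values run over positions of the same 5 libraries with different depths, and describe likeness only.

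The identity of the last nucleotide went with the direction. Of the 108 positions, 19 end in G, and 16 of these rose and 0 fell (median log2 fold change 1.44). No G among them was lower with edgeR at an unadjusted p below 0.05 either, and DESeq2 called 15 higher and 0 lower. Over the gene 23.8% of G positions chosen in the same way were higher and 27.8% lower, and in the late 5′ ETS 6 of 15 (40%) were higher and 2 (13.3%) lower. At U, 6 of 47 rose and 17 fell (median -0.24), while C had 8 higher and 8 lower of 22 (-0.21) and A had 6 higher and 3 lower of 20 (0.08). In the gene the shares called higher were 3.51% at A, 5.54% at C and 6.52% at U on the same scale, and those called lower 80.4% at A, 74.3% at C and 73.2% at U.

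**Figure D3:**
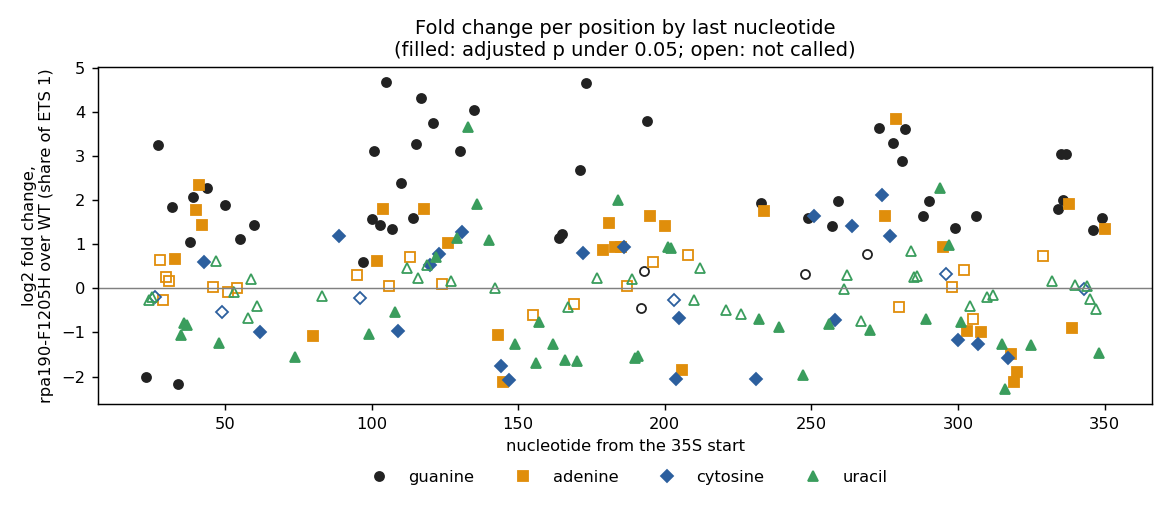
Log2 fold change of each tested position of the early 5′ ETS (rpa190-F1205H over WT, as a share of the 5′ ETS; vertical axis) by nucleotide from the 35S start, marked by the last nucleotide of the RNA. The guanine positions lie above 0 except nt 23, nt 34 and nt 192, and filled symbols passed an adjusted p of 0.05 with edgeR.

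The 10 positions of highest log2 fold change, among those called and not overlapping between genotypes, all lay under the required share in every WT library. They were tested only because they were high in rpa190-F1205H, so their values are a description, with no p and no tally of their bases. The surroundings of the leading ones are shown, with the last nucleotide of the RNA in capitals and 10 nt on each side.
nt 105: acgguggagaGagucgcuagg
nt 173: ggguugaugcGuauugagaga
nt 117: gucgcuagguGaucgucagau
nt 135: gaucugccuaGucucuauaca
nt 279: gugagcagcgAaggauuuggu
nt 194: uacaauuuggGaagaaauucc
Nt 105 (G) had 303 and 62 counts in the rpa190-F1205H libraries and 1 count in each WT library. These are shares of 0.157% and 0.232% in rpa190-F1205H, against 0.00648%, 0.00772% and 0.00732% in WT, a ratio of pooled shares of 23.3 with a 95% counting interval of 7.92 to 114. Both mutant values lay far above WT, but 3 WT counts in all leave the ratio imprecise. Nt 173 (G) had 200 and 43 counts in rpa190-F1205H and 1, 0 and 1 in WT, a ratio of 23.3 (6.38 to 194). Nt 135 (G) had 163 and 21 counts in rpa190-F1205H and 0, 2 and 0 in WT, a ratio of 17.7 (4.82 to 147), and its log2 fold change ran from 3.42 without WT library 1 to 8.68 without WT library 2. The WT signal at these 3 positions is thus a handful of counts.

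Nt 117 (G) had 0.155% and 0.355% of the signal in rpa190-F1205H and 0.0194%, 0.00772% and 0.00732% in WT (log2 fold change 4.32 ± 0.532, and 3.68 without rpa190-F1205H library 2 or 4.97 without WT library 1). Nt 279 (A), which lies between a G and an A, had 0.260% and 0.217% in rpa190-F1205H and 0.00648%, 0.00772% and 0.0366% in WT (3.84 ± 0.462, and 5.06 without WT library 3). Nt 194 (G), the last of a run of 3 G, had 0.199% and 0.206% in rpa190-F1205H and 0.0130%, 0.0154% and 0.0146% in WT (3.80 ± 0.454). The libraries of a genotype lay close together at nt 194 and further apart at nt 117. The other 4 of the 10 were nt 121 (G), nt 133 (U), nt 273 (G) and nt 282 (G), with log2 fold changes from 3.61 to 3.75. Every WT library held 0 counts at nt 182 and nt 45, which did not pass the filter. Taking 3 counts over all WT libraries as the limit, nt 182 (G), with 116 and 19 counts in rpa190-F1205H, was at least 9.20-fold higher there. Nt 45 (A), with 108 and 15 counts in rpa190-F1205H, was at least 7.86-fold higher. Nt 88 and nt 215 (both U) also had 0 counts in every WT library, with 10 and 2 counts and 5 and 1 counts in rpa190-F1205H. The same limit gave 0.888-fold and 0.444-fold there, which shows no rise. Nt 182 and nt 45 were named after their values were seen.

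Of the 10 positions of lowest log2 fold change, nt 316, nt 204 and nt 247 reached the required share in both genotypes. The other 7 passed the filter through WT, where they were high, and their values are a description. The surroundings of 4 are shown, the 2 with the most signal and the 2 G.
nt 316: gcaaucuauuUcaaagaauuc
nt 204: gaagaaauucCcagagugugu
nt 34: uucgaaaagaGuuuggaaacg
nt 23: uugaagacaaGuucgaaaaga
Nt 316 (U) had 0.176% and 0.131% of the signal in rpa190-F1205H, against 0.635%, 0.702% and 0.981% in WT (log2 fold change -2.28 ± 0.264, adjusted p = 4.19e-09 with edgeR). Nt 204 (C), the middle one of a run of 3 C, had 0.162% and 0.135% in rpa190-F1205H and 0.622%, 0.741% and 0.520% in WT (-2.05 ± 0.255). In both cases the highest mutant library was well under the lowest WT library. Nt 34 and nt 23 are G positions of the opposite direction, and both stand between an A and a U within the initial stretch with signal. Nt 34 had 0.0613% and 0.0711% in rpa190-F1205H and 0.292%, 0.301% and 0.278% in WT (-2.17 ± 0.298). Nt 23 had 0.0192% and 0.0224% in rpa190-F1205H and 0.110%, 0.0772% and 0.0513% in WT, on 37 and 6 counts in rpa190-F1205H and 17, 10 and 7 in WT (-2.00 ± 0.435). The other 6 were nt 145 (A), nt 147 (C), nt 231 (C), nt 247 (U), nt 319 (A) and nt 320 (A), at -2.13 to -1.90, and nt 145 was at -2.86 without rpa190-F1205H library 1.

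The order of the sites with the highest shares differed between genotypes. In rpa190-F1205H the 5 positions of highest share were nt 297, 112, 186, 340 and 109, and in WT nt 109, 62, 258, 108 and 340. The surroundings of these sites, without nt 340 and nt 108, are shown because they are among the strongest of the region.
nt 297: gguggauuacUagcuaauagc
nt 186: uugagagauaCaauuugggaa
nt 112: agagagucgcUaggugaucgu
nt 109: uggagagaguCgcuaggugau
nt 62: guaggcuuguCguucguuaug
nt 258: gggcaucuugCgauuccauug
Nt 297 (U, followed by A) held 2.04% and 2.08% of the 5′ ETS signal in rpa190-F1205H, against 1.16%, 0.880% and 1.10% in WT, so it was higher in both mutant libraries than in any WT library (0.98 ± 0.219, adjusted p = 1.76e-04 with edgeR). Nt 186 (C, followed by A) held 2.05% and 1.34% in rpa190-F1205H, against 0.855%, 0.779% and 1.04% in WT (0.94 ± 0.233, adjusted p = 5.43e-04). Nt 112 (U, followed by A) held 1.73% and 1.86% in rpa190-F1205H and 1.42%, 1.53% and 0.989% in WT, and was not called (0.45 ± 0.226, adjusted p = 0.0670 with edgeR). Its log2 fold change was 0.51 without rpa190-F1205H library 1 and 0.40 without library 2, fits that leave 1 mutant library.

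Of the leading WT sites, 3 that fell are C followed by G. Nt 109 held 1.66% and 0.95% in rpa190-F1205H, against 2.87%, 2.76% and 2.06% in WT (-0.96 ± 0.245, adjusted p = 7.20e-04 with edgeR). Nt 62 held 1.28% and 0.898% in rpa190-F1205H, against 2.29%, 2.184% and 2.09% in WT (-0.99 ± 0.229, adjusted p = 2.36e-04). Nt 258 held 1.18% and 0.755% in rpa190-F1205H, against 1.73%, 1.67% and 1.46% in WT (-0.72 ± 0.234, adjusted p = 0.00576). At all 3 sites rpa190-F1205H library 2 was the lowest of the 5, and the groups did not overlap. Nt 108 (U, followed by C) held 1.16% and 0.924% in rpa190-F1205H and 1.70%, 1.81% and 1.04% in WT, which overlapped. It was just past the threshold (-0.53 ± 0.242, adjusted p = 0.0446 with edgeR), and its log2 fold change was -0.38 without rpa190-F1205H library 2. It lost the call without WT library 1 (adjusted p = 0.190 with edgeR) and without WT library 2 (0.251). It also lost it with the late 5′ ETS total as library size (0.139), with DESeq2 (0.0918) and with 5′ ETS positions alone in the fit (0.0742). Nt 340 (U, followed by G) did not differ by more than the spread, with 1.51% and 1.39% in rpa190-F1205H and 1.23%, 1.34% and 1.58% in WT (0.07 ± 0.220, adjusted p = 0.785 with edgeR).

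Summed over the early 5′ ETS, the largest difference by last nucleotide was at G. RNA ending in G made up 23.9% and 24.7% of the early signal in the rpa190-F1205H libraries, against 8.53%, 9.61% and 9.22% in the WT libraries, while G is 26.9% of the positions. G was thus close to its share of the positions in rpa190-F1205H and well under it in WT, with a difference of 15.2 percentage points. U ended 36.3% and 35.4% in rpa190-F1205H, against 44.7%, 45.4% and 45.4% in WT, with U at 30.9% of the positions. C ended 25.1% and 20.4% in rpa190-F1205H, against 31.4%, 29.0% and 30.1% in WT, with C at 15.7% of the positions. A ended 14.7% and 19.5% in rpa190-F1205H, against 15.3%, 16.04% and 15.3% in WT, and these overlapped. The exact permutation p was 0.2 for G, C and U and 0.8 for A, or 0.267 for the first 3 after Benjamini-Hochberg adjustment over the 4 bases (exact permutation test). The 4 shares make up the whole early signal of a library, so a gain at G has to be offset at other bases. The falls at U and C are thus not separate from the gain at G.

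In the late 5′ ETS G ended 21.2% and 21.4% of the signal in rpa190-F1205H, against 9.89%, 12.3% and 8.88% in WT. The difference between genotypes at G was therefore larger in the early than in the late 5′ ETS by 4.24 percentage points (early minus late share at G of 3.02 ± 0.489 points in rpa190-F1205H and -1.22 ± 1.49 points in WT). Both mutant values lay above all WT values, at the smallest p the design allows (exact permutation p = 0.2). G makes up 26.9% of the positions in the early and 23.4% in the late 5′ ETS. C stood out in the early 5′ ETS in both genotypes, at 22.7% ± 3.36 in rpa190-F1205H and 30.2% ± 1.20 in WT, against 10.96% ± 0.504 in rpa190-F1205H and 13.7% ± 1.301 in WT in the late 5′ ETS.

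**Figure D4:**
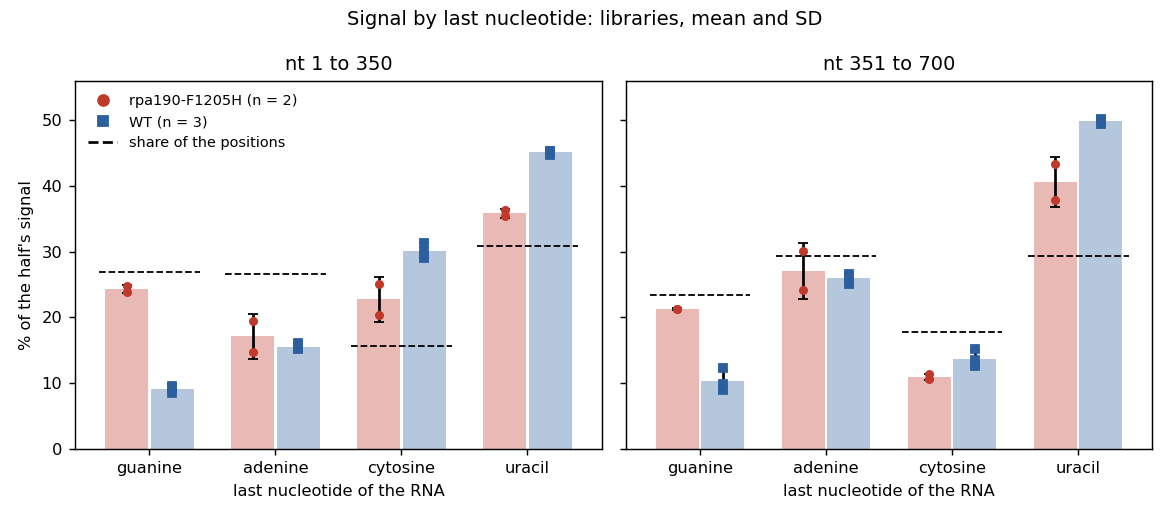
Percent of the signal of nt 1 to 350 (left) and nt 351 to 700 (right) by last nucleotide of the RNA, with bars for means, error bars for SD, 1 point per library and dashed lines for that nucleotide's share of the positions. Guanine is at 23.9% and 24.7% in the rpa190-F1205H libraries and under 10% in the WT libraries on the left, and cytosine is above its share of the positions on the left only.

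The nucleotide that would be added next differed as well. In rpa190-F1205H 47.1% and 44.2% of the early signal lay 1 nt before a G, against 55.6%, 54.9% and 52.3% in WT, while G follows 26.9% of the positions. Before an A it was 33.0% and 34.5% in rpa190-F1205H, against 24.5%, 23.0% and 26.5% in WT. Signal before C (10.2% and 11.1% in rpa190-F1205H, against 10.9%, 12.3% and 11.1% in WT) and before U (9.66% and 10.1% in rpa190-F1205H, against 9.09%, 9.75% and 10.1% in WT) overlapped. So in both genotypes more signal than the base composition lay just before G, less so in rpa190-F1205H (exact permutation p = 0.2 for G and for A).

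Sorted by last and next nucleotide, the 16 contexts moved in different directions. U followed by G held the most signal in every library, 16.6% and 15.3% in rpa190-F1205H against 23.6%, 23.6% and 23.7% in WT. C followed by G held 14.4% and 11.2% in rpa190-F1205H, against 19.0%, 17.4% and 16.1% in WT, on 16 positions. The summed shares of U followed by G and of C followed by G thus lay below every WT value. The C sum was lower through its tall sites nt 109, nt 62 and nt 258, and its positions did not move alike. Of 12 tested C positions before G, 5 were called higher and 4 lower with edgeR, against 1 and 13 of 27 U positions before G. Some were tested through 1 genotype alone, so these counts are a description. G followed by A held 8.49% and 9.14% in rpa190-F1205H, against 1.74%, 1.60% and 2.08% in WT, the largest gain of the 16. G followed by G held 8.55% and 8.92% in rpa190-F1205H, against 3.84%, 4.61% and 4.40% in WT. G before C or U was also higher in both mutant libraries than in any WT library. U followed by A, the context of nt 297 and nt 112, held 11.3% and 11.5% in rpa190-F1205H, against 9.74%, 9.28% and 9.09% in WT. Without nt 297 and nt 112, the summed share of this context overlapped between the genotypes. A followed by G overlapped between the genotypes, with 7.58% and 8.73% in rpa190-F1205H and 9.18%, 9.31% and 7.98% in WT. These contexts were sorted after the data were seen and not tested.

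**Figure D5:**
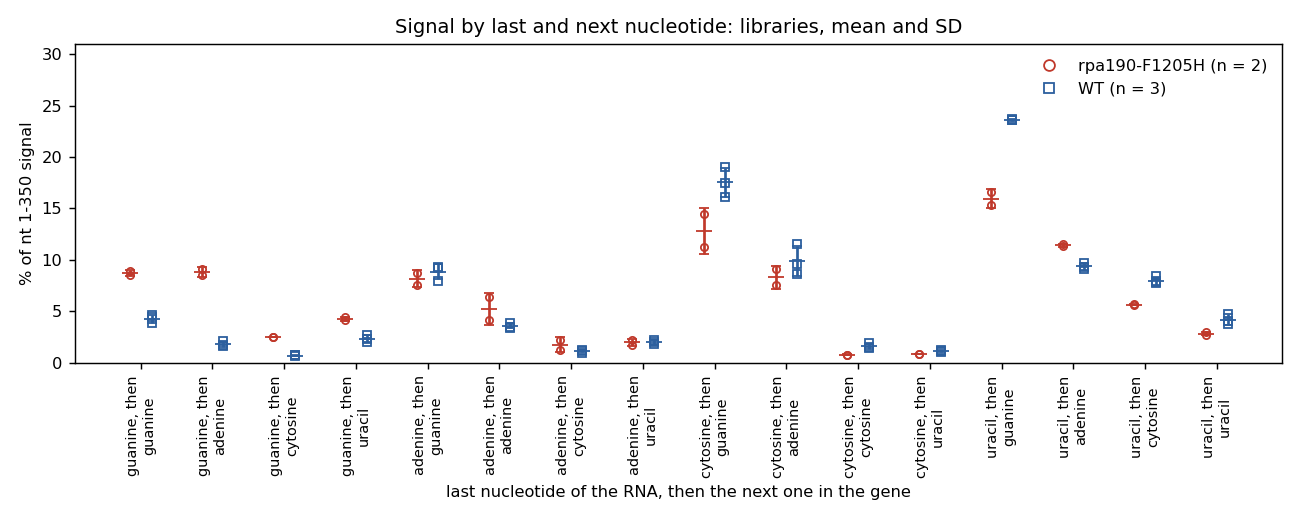
Percent of the signal of nt 1 to 350 in each of the 16 combinations of the last nucleotide of the RNA and the next one in the gene, with 1 point per library and the mean and SD, rpa190-F1205H left of WT. The 4 contexts that start with guanine are higher in rpa190-F1205H, and the summed shares at uracil or cytosine followed by guanine are lower. At cytosine followed by guanine this comes from the tall sites nt 109, nt 62 and nt 258.

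The signal was spread more evenly in rpa190-F1205H. After each library was thinned to 7076 counts, the Gini coefficient over the 350 positions (0 when all are equal, near 1 when 1 holds all) was 0.697 and 0.665 in rpa190-F1205H, against 0.755, 0.745 and 0.730 in WT (exact permutation p = 0.2). At this depth 28.1 and 35.1 positions, on average over 20 draws, held 50% of the early signal in rpa190-F1205H, against 21.9, 22.0 and 24.0 in WT. The 10 highest positions held 26.5% and 22.0% in rpa190-F1205H and 30.3%, 30.6% and 27.8% in WT. In each measure rpa190-F1205H library 1 stood nearer to WT than library 2 did.

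The number of pause sites did not separate the genotypes. Pause sites were positions with at least 10 counts, after thinning to 12960 counts in the 5′ ETS, more than 3 SD over the mean of the flanking 100 nt on either side. There were 13 and 7 in rpa190-F1205H and 11, 12 and 13 in WT, which overlap (exact permutation p = 0.8). In all 22 positions were called in at least 1 library. Of these 6 were called in both mutant libraries (4 U and 2 C) and 7 in all 3 WT libraries (4 C, 2 U and 1 A). Nt 340 was called in all 5. Nt 277 (C followed by G) was called in both mutant and no WT libraries, with 1.28% and 0.868% of the 5′ ETS signal in rpa190-F1205H against 0.577%, 0.409% and 0.439% in WT (log2 fold change 1.18 ± 0.240, adjusted p = 4.80e-05 with edgeR). Nt 206 (A) and nt 307 (C) were called in all WT and no mutant libraries. No G was a pause site in both mutant libraries or in all WT libraries. Nt 277, 206 and 307 were named after their values were seen.

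Counts on the opposite strand were few. The early 5′ ETS held 127 and 18 antisense 3′ ends in rpa190-F1205H, or 0.111% and 0.118% of the counts of both strands, against 27, 16 and 12 in WT, or 0.324%, 0.226% and 0.168%. Both mutant libraries lay below all WT libraries (exact permutation p = 0.2), on counts too small to place them along the region. This direction depends on the denominator, which is nearly all early sense signal. Sense counts of the whole gene were 1861226 and 301306 in rpa190-F1205H, and 519517, 445251 and 465427 in WT. Set against these totals, the antisense counts were higher in both mutant libraries than in any WT library. That difference was not tested.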

How the data were processed

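The authors deposited unnormalised counts of RNA 3′ ends for every nucleotide and strand of an rDNA repeat (whole numbers, from the values). Per the submitters' processing notes, the authors used SAMtools 1.3.1, BWA 0.6, Trim Galore 0.4.1 and bcl2fastq 2.18.0.012. Not given in the sources used here are the build, the settings, the treatment of reads shared by rDNA repeats and the removal of duplicates. Signal is thus not traced to any particular repeat, and intervals cover counting error only. Groups follow the genotype label. Sense counts of all 35S positions, and of 50-nt windows, were fitted with edgeR 4.0.16 in R 4.3.3 (quasi-likelihood test, filterByExpr, no block, Benjamini-Hochberg threshold 0.05, library size the 5′ ETS total with no further factor). The filter needed a share of 0.0648% in 2 libraries. SE was the size of the log2 fold change over the square root of F. Exact permutation tests of shares (SciPy 1.17.1) were two-sided. The limit at 0 counts is a share of 0.00156% and 0.0112% of the 5′ ETS in rpa190-F1205H and 0.0194%, 0.0231% and 0.0220% in WT (3 counts). The position fit and the pause caller were tested on simulated data.

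Named positions were the 5 of highest share in each genotype, and the 10 highest and 10 lowest log2 fold changes among those called and not overlapping. All 7 windows and 4 bases were named. The region, lists and tests were chosen with earlier results of these data known. Alternatives covered scaling, DESeq2 1.42.0, the filter, the features fitted, window size, the region's bound, a ceiling at the 99th percentile, the base offset, thinning, the pause definition and each library left out. The labels give no batch.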

Additional observations from a re-analysis of the deposited data

How the results depend on the processing

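The direction of the early share, the share at G, the Gini coefficient, the mean position and the antisense share was the same under each alternative tried that measured the same nucleotide. In each of these the antisense share stayed a share of the early counts of both strands. With 1 library left out, the early share differed by 3.53 to 5.57 points and the share at G by 14.8 to 15.6. Counted at the next base, the difference was -8.59 points at G, 0.258 at U and -2.03 for early minus late at G, and at the previous base 2.38 at C. The difference at A ran from -0.866 to 3.97 points as libraries were left out. That in pause sites ran from -5.00 to 1.00, and was 0.667 with 2 SD as the limit.

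Calls depended most on the scaling. Against 85 positions higher and 49 lower, the 35S total gave 220 and 0, and TMM factors gave 195 and 5. Windows numbered 7 higher and 0 lower on the 35S total, against 3 and 3. With the late 5′ ETS total they were 4 and 2. At 25 nt, 5 of 14 windows were lower, and at 70 nt, 1 of 5. On the 35S total, windows nt 51 to 100, 201 to 250 and 301 to 350 turned to 1.42, 1.16 and 1.24 (log2). The tall WT sites nt 62, 108, 109 and 258 turned to 0.74, 1.19, 0.78 and 1.01, and with TMM factors to 0.29, 0.74, 0.33 and 0.57. Both scalings include the gain of the whole 5′ ETS over the rest of the gene. Nt 340, never called as a share of the 5′ ETS, was at -0.0802 with DESeq2 size factors and ran from -0.0120 to 0.17 with libraries left out. The DESeq2 test called 126 early positions, 113 of them shared with the 134 of edgeR.

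The labels give same-numbered samples nothing in common but the number and the species. Correlations of deviations from the group means were -0.00326 (number 1) and -0.0230 (number 2). The deviations of the 2 mutant libraries mirror each other, so these values are not separate checks. They cannot show whether same-numbered samples were handled together. With the replicate block, 83 positions were higher and 47 lower, and 2 windows higher and 3 lower, nt 101 to 150 no longer passing (adjusted p = 0.141 with edgeR). Depth limits WT, where the median early position had 6 counts or fewer.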
